A study of Mus musculus with 4 samples.

Results

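Tsc22d1 and Serp2 are neighbours on mouse chromosome 14 that are transcribed towards each other, with a dense row of open chromatin regions beside them. The members described here are these 2 genes, with Tsc22d2 and Tsc22d4 for comparison, 4 of 21440 protein-coding genes that could be given a strand. Tsc22d1 and Serp2 were chosen by the number of open regions around them in this list, so that number is a description and was not tested. From 300 kb before to 300 kb after the 142 kb that both genes span, the deposited list held 31 of its 32011 distinct regions. The question asked of these regions was which gene they lie closest to.

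Bulk ATAC-seq, which marks DNA that the Tn5 transposase can reach, was performed on non-irradiated submandibular salivary gland organoids (mSGOs) of C57BL/6 mice, which the paper harvested at day 7 of culture. The labels give 4 samples, namely 2 of passage 1 and 2 of passage 2, with ages of 12 weeks and of 3 months given once in each passage. All samples grew in Matrigel in a medium with EGF, FGF2, insulin, dexamethasone, the compound Y27632 and conditioned media with R-spondin1 and Wnt3a. The authors deposited 1 consensus list of regions for all samples, so values by sample were not at hand, the depth of each sample is unknown, and passages and ages could not be compared.

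Each region carries an IDR score, which is scaled up to 1000 and ranks how repeatable a region was, and a fold of signal over the local background, given here for the strongest summit of a region. The list was read as GRCm38, although the labels name GRCm39. Regions ran past the end of the GRCm39 sequence on 8 of 21 chromosomes, and a region midpoint lay within 1 kb of 38.3% of protein-coding 5′ ends in a RefSeq table of GRCm38.p6, against 5.03% of those in the GRCm39 annotation. Of markers of the labelled tissue, 3 of 5 epithelial genes (Krt8, Epcam and Cdh1, without Krt7 and Krt18) and 7 of 8 basal and stem/progenitor genes (without Trp63) had a region at the outermost 5′ end. Of the cycling markers 1 of 2 had such a region (Top2a, without Mki67), and of 4 immune, 3 endothelial and 3 fibroblast markers 0 had a region there. A list from bulk material cannot tell a region that is open in few cells from one that is weakly open in many.

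TSC22 domain proteins are leucine zipper proteins that pair with each other and lack a classical DNA-binding domain. Tsc22d1 was first found as a transcript induced by TGF-beta and is made in long and short forms, whereas Tsc22d3, known as GILZ, is a classical target of glucocorticoids such as the dexamethasone in the medium. Serp2 encodes a small membrane protein of the endoplasmic reticulum, related to Serp1 (RAMP4), which associates with the translocon through which new secretory proteins enter the endoplasmic reticulum.

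At Tsc22d1, regions lay at the outermost 5′ end and at a pair of listed starts near the end of the gene. The first of these regions (chromosome 14, 76414130 to 76415110) covered the outermost start and had a fold of 6.17, an IDR score of 927, 6 summits and a width of 981 bp. A further region from 76504120 to 76504771, with a fold of 6.76, an IDR score of 751 and 2 summits, lay 89.5 kb into the gene, and its strongest summit was 23 bp after the innermost listed start. The fold of the first lay below the median of 7.90 for the 8178 regions at protein-coding 5′ ends. The further region was over 1 kb from every outermost protein-coding 5′ end. Its fold was close to the median of 6.87 for all regions that far away. RefSeq lists 5 starts for Tsc22d1. The 300-base windows of 3 of them (250 bases before the start and 50 after) overlapped a region, and those of the others, 0.860 kb and 73.5 kb into the gene, did not. Among all 21263 such windows of protein-coding genes, 36.7% overlapped a region.

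At Serp2, the list held 0 regions within 1 kb of the outermost 5′ end. The nearest midpoint was 13.4 kb upstream, in a region from 76570342 to 76570603 with a fold of 4.41 and an IDR score of 541, close to the lowest score in the list of 540. Both listed starts of Serp2, 0.158 kb and 0.387 kb inside the outermost 5′ end, were likewise without a region. Of the 4 members, 3 (Tsc22d1, Tsc22d2 and Tsc22d4) had a region within 1 kb of the 5′ end, beside 38.3% of all protein-coding genes. In the 16006 regions with the lowest q-values, 0 of the 4 members had a region within 1 kb of the outermost 5′ end, beside 25.9% of all protein-coding genes. The region at the innermost listed start of Tsc22d1 was still among them. A distance of 13.4 kb or more was found for 9416 genes (43.9%), so that a nearest region this far away is by itself common.

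Promoter windows of the pair are shown for the 2 starts of Tsc22d1 whose window lies wholly within a region and for both listed starts of Serp2, with that of Serp1, the relative of Serp2, for comparison. The other 3 windows of Tsc22d1 are not shown, of which that at chr14:76503976-76504275 overlapped a region by 156 bases. Sequences are from RefSeq (GRCm38.p6), written 5′ to 3′ along the strand of the gene, and capitals mark matches on either strand to any of 6 motifs. These were CCAAT (the box that NF-Y binds), GGGCGG (the GC box of SP and KLF factors), TATAAA (the TATA box), TGANTCA (the AP-1 motif), GGAATG (the TEAD motif) and the palindromic glucocorticoid response element. The matches did not overlap each other in these windows. Tsc22d2 and Tsc22d4 are not in the promoter table used here.
Tsc22d1, outermost start, chr14:76414711-76415010, plus strand, all 300 bases within a region: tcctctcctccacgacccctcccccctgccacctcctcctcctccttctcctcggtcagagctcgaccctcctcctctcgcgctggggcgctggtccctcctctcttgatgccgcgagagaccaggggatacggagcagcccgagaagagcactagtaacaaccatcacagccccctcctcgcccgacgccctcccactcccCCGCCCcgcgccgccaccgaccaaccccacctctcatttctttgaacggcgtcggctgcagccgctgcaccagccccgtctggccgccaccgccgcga
Tsc22d1, innermost listed start, chr14:76504260-76504559, plus strand, all 300 bases within a region: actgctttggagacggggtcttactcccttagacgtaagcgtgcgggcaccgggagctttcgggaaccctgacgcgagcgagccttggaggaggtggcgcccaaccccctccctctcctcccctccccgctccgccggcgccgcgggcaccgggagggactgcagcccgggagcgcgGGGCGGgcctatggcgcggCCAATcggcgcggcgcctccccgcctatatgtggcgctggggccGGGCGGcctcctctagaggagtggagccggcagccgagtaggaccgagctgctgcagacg
Serp2, outer listed start, chr14:76556867-76557166, minus strand, 0 bases within a region: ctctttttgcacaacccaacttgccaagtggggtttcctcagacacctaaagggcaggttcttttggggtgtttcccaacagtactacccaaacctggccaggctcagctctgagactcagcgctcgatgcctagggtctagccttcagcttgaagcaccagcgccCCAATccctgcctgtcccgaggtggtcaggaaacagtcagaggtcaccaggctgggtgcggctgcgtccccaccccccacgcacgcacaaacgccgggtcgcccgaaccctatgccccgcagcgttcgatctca
Serp2, inner listed start, chr14:76556638-76556937, minus strand, 0 bases within a region: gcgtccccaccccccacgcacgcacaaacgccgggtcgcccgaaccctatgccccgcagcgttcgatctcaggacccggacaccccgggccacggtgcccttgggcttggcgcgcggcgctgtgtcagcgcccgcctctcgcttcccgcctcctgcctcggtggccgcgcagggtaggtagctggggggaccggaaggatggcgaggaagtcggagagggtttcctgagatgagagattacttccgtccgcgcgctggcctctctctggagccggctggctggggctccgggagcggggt
Serp1, chr3:58525835-58526134, minus strand, 275 bases within a region: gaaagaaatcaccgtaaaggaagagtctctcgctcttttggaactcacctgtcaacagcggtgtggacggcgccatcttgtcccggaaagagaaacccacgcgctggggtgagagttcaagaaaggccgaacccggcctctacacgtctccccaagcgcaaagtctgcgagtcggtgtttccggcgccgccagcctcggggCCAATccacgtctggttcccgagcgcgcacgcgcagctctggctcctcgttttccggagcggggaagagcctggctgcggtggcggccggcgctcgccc

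The innermost window of Tsc22d1 held a CCAAT match 54 bases before the start and 2 GGGCGG matches, 73 and 10 bases before it. The outermost window held 1 GGGCGG match, 48 bases before the start, and 0 of CCAAT. The outer window of Serp2 held CCAAT 84 bases before the start, and its inner window held 0 matches to any of the 6 motifs. The AP-1, TEAD and glucocorticoid motifs were found in 0 of the windows of Tsc22d1, Serp2, Serp1 and Tsc22d3, beside 6.99%, 13.6% and 0.00941% of all protein-coding windows. Of the latter, 38.2% held CCAAT and 46.2% held GGGCGG. In windows that overlapped a region, GGGCGG was found in 70.1%, against 32.4% of the other windows, whereas CCAAT was found in 44.1% and 34.8%. A match is a description of the letters and not of a bound factor.

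The listed starts of Serp2 differed in CpG content. The ratio of observed to expected CpG was 0.891 in its inner window and 0.566 in its outer window, beside 0.901 and 0.884 in the open outermost and innermost windows of Tsc22d1 and a median of 0.567 over all windows. Of the 5984 protein-coding windows with a ratio of 0.8 or more, 66.7% overlapped a region, and of the 11126 windows with a ratio under 0.6, 13.0% did. In the step from 0.5 to 0.6, which holds the outer window of Serp2, 40.9% overlapped a region. The inner window of Serp2 was thus CpG-rich and without a region, as was the window 0.860 kb into Tsc22d1, with a ratio of 0.813.

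**Figure D1:**
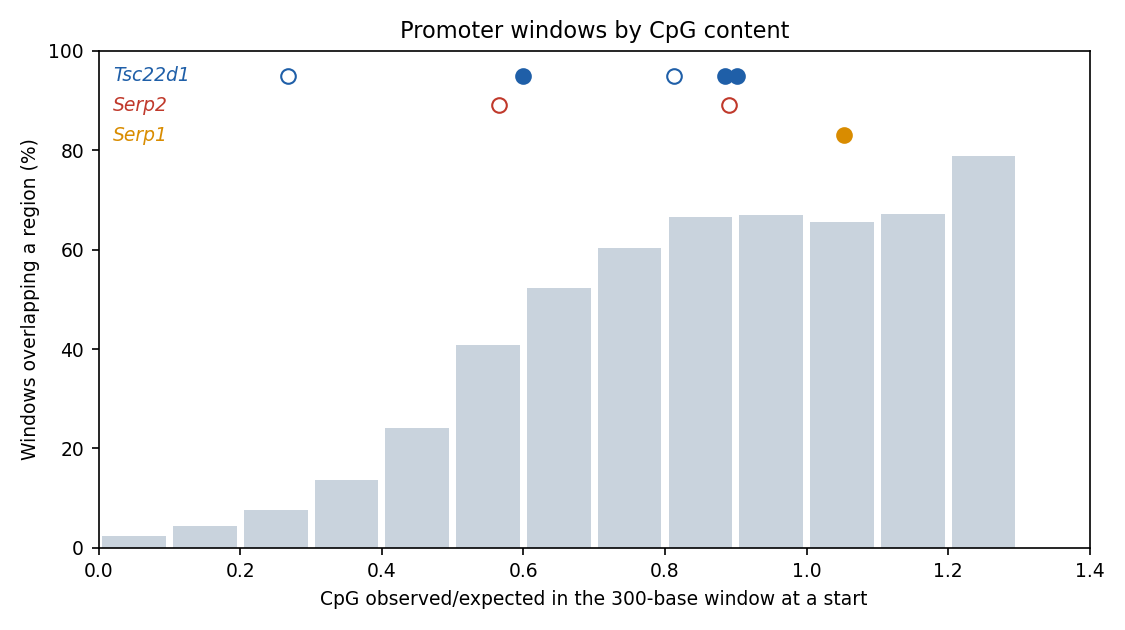
Share of 300-base promoter windows of protein-coding genes that overlap an open region (bars, %), by the ratio of observed to expected CpG in steps of 0.1, for steps with at least 50 windows. Points above the bars mark the windows of Tsc22d1, Serp2 and Serp1 by their own ratio, filled where the window overlaps a region and empty where it does not, and both Serp2 points are empty.

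Of the 31 regions around the pair, all but that at the outermost start of Tsc22d1 were distal, which here means that the midpoint was more than 1 kb away from the 5′ ends of all protein-coding genes. The distal regions numbered 30. The protein-coding 5′ end nearest to 24 of these 30 (80.0%, 95% Wilson interval 62.7 to 90.5, counting error only) was that of Serp2, which itself had 0 regions at the 5′ end. Tsc22d1 was nearest to 3 (10.0%, Wilson interval 3.46 to 25.6) and Nufip1, whose 5′ end lies just outside the window, to 3. The dense distal regions therefore lay closest to Serp2 in position, at a median of 104 kb and at most 205 kb from its 5′ end. Only 3 of the 30 lay inside a protein-coding gene, namely 2 in Tsc22d1 and 1 in Serp2.

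**Figure D2:**
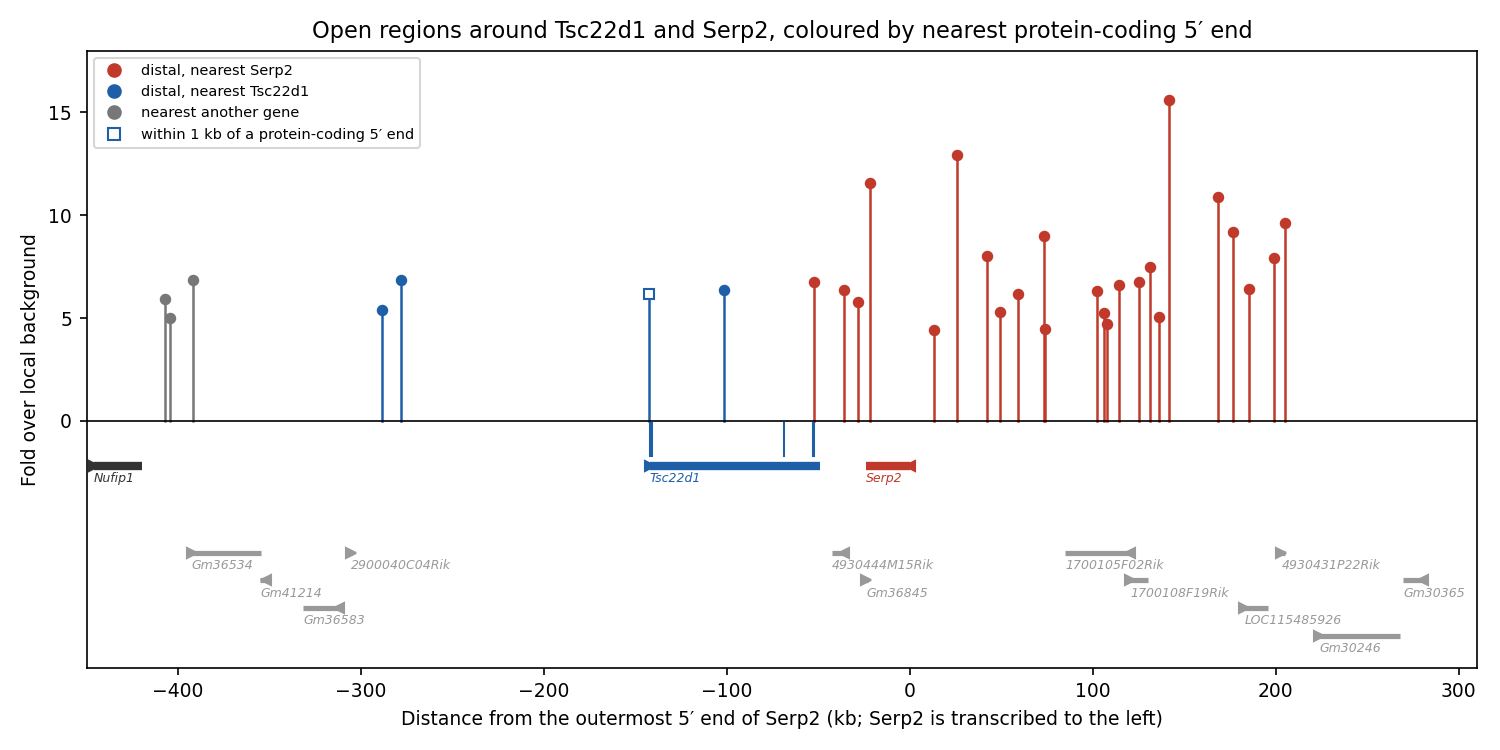
Fold over the local background (y axis) of each open region around Tsc22d1 and Serp2 against the distance of its midpoint from the outermost 5′ end of Serp2 (x axis, kb), coloured by the nearest protein-coding 5′ end, with an open square for the region within 1 kb of such an end. Bars below are genes with arrowheads at their 5′ ends (protein-coding above, long noncoding in grey), and short ticks mark the listed starts of Tsc22d1. The 20 regions to the right of 0 form the row upstream of Serp2.

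Of the 24 distal regions nearest to Serp2, 20 lay upstream of its 5′ end, in a stretch from 76570342 to 76762300. The row measured 192 kb and held 10.4 regions per 100 kb, against 2.00 per 100 kb in the rest of the window. Midpoints within it were a median of 8.06 kb apart, and from 0.672 kb to 28.2 kb. Beyond the last of them, 156 kb without a region followed before the next, which lay nearest to Ccdc122. On the far side of Tsc22d1, 136 kb without a region separated its 5′ end from the next distal region. When each chromosome was divided into windows as long as the row, the median window held 1 region, and 4 of 14150 windows held 20 or more. The length was set by the row itself, and the row begins and ends at its own regions. The windows instead lay on a fixed grid, which can split a dense run. These counts are therefore a description and do not measure how uncommon such a density is.

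The row was dense but, for the most part, not strong. Its folds ran from 4.41 to 15.6 with a median of 6.69 (quartiles 5.31 and 9.06), beside a median of 6.87 (quartiles 5.57 and 8.92) for all 23833 distal regions, and 9 of the 20 lay above that median. An IDR score of 1000 was given to 9 of the 20, beside 40.9% of distal regions. The strongest region, from 76698631 to 76699207, lay 142 kb upstream of Serp2 with a fold of 15.6. The next, from 76582465 to 76583063, lay 25.7 kb upstream with a fold of 12.9, and both had an IDR score of 1000. The widest, from 76664593 to 76665427 with 835 bp and 6 summits, had a fold of 4.71 and an IDR score of 574.

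In the first 50 kb upstream of Serp2, of which the row fills only the part from 13.4 kb on, it held 4 regions. From 50 to 100 kb it held 3, from 100 to 150 kb 8, from 150 to 200 kb 4 and from there to its end at 205 kb 1, and with counts this small no difference between these steps is claimed. The 8 regions between 100 and 150 kb had a median fold of 6.46 and included the strongest region of the row, whereas the 4 from 150 to 200 kb had a median of 8.57. The closest neighbours, from 76630118 to 76630859 and from 76630980 to 76631340, had folds of 9.01 and 4.49.

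The other 4 distal regions nearest to Serp2 lay on the side of Tsc22d1. The region at the innermost start of Tsc22d1 is among them, since it is 52.6 kb from the 5′ end of Serp2 and 89.5 kb from the outermost 5′ end of Tsc22d1. Another, from 76520649 to 76521025 with a fold of 6.37, had its midpoint 18 bp from the 5′ end of the long noncoding RNA gene 4930444M15Rik, which lies between the genes. The region from 76528648 to 76529236 lay between the genes with a fold of 5.79. The last, from 76535143 to 76535638, lay inside Serp2, 21.7 kb into the gene, with a fold of 11.6 and an IDR score of 1000, and only 2 of the 24 were stronger. Whether it lies in an exon or an intron was not examined, because the gene table gives outer gene ends only.

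The answer depended on which starts were allowed. With every listed start counted, the innermost start of Tsc22d1 took over 3 regions, which left Serp2 with 21 and gave Tsc22d1 6. With 5′ ends of genes of any type, 27 of the 30 distal regions were nearest to a noncoding RNA gene or a pseudogene and 2 to Serp2. The row spans the long noncoding RNA genes 1700105F02Rik, 1700108F19Rik, LOC115485926 and 4930431P22Rik, but 0 of these had a region within 1 kb of the 5′ end. With only those protein-coding 5′ ends that have a region within 1 kb, Serp2 had no 5′ end to count, and 27 of the 30 (90%) were nearest to Tsc22d1, at distances for the row of 156 to 347 kb from its outermost 5′ end. From the innermost start of Tsc22d1 the row lay 66.0 to 258 kb away. Nearness does not show on which gene a region acts, and the list holds no measure of contact or expression.

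Distal regions nearest to Tsc22d1 were few. The 3 were a region from 76268432 to 76268680 with a fold of 5.40, a region from 76278810 to 76279340 with a fold of 6.87, both upstream, and a region from 76455087 to 76455547 inside the gene with a fold of 6.36. Their IDR scores of 618, 871 and 700 were all below the median of 912 for distal regions. At least as many were found for 14.0% of protein-coding genes, and 40.4% had 1 or more. By number of distal regions and length of sequence nearest to the 5′ end, 223 kb for Tsc22d1, the most similar genes elsewhere were Lhfp and Sptbn1 with 3 regions each and Ctdspl with 4. All 3 lacked a region within 1 kb of the outermost 5′ end, where Tsc22d1 has one. For Ctdspl the nearest lay 1138 bp away, just past this limit, against 22076.5 bp for Lhfp and 21043.5 bp for Sptbn1. The 3 were the closest of 3411 candidates. Among all protein-coding genes the share with a region this near was 38.3%, so lacking one is common and does not set Tsc22d1 apart.

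Serp2 stood at rank 10 among protein-coding genes by number of distal regions, with 11 genes (0.0513%) at 24 or more. Klf6 had most, with 34. The stretch nearest to the 5′ end of Serp2 was 311 kb, which gave 7.72 distal regions per 100 kb, and of 1032 genes with a stretch from 0.8 to 1.25 times as long, the median had 2 regions and 1, Serp2 itself, had 24. The gene most similar to Serp2 in number and stretch, by the rule used for Tsc22d1, was Tiam1, with 23 regions over 325 kb. Of the 24 genes with 20 or more distal regions, 14 had a region at the 5′ end, beside 38.3% of all protein-coding genes, and 10 did not. Among the 10 were Myc, Efna5 and Tiam1, with the nearest region 6664, 1170 and 1493.5 bp away. Of the 24, only Eif4enif1 and Serp2 had their nearest region 13.4 kb or more away. Counted without regard to other genes, 20 regions lay 1 to 300 kb upstream of Serp2, a number that 178 protein-coding genes reached or passed, with a median of 5.

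**Figure D3:**
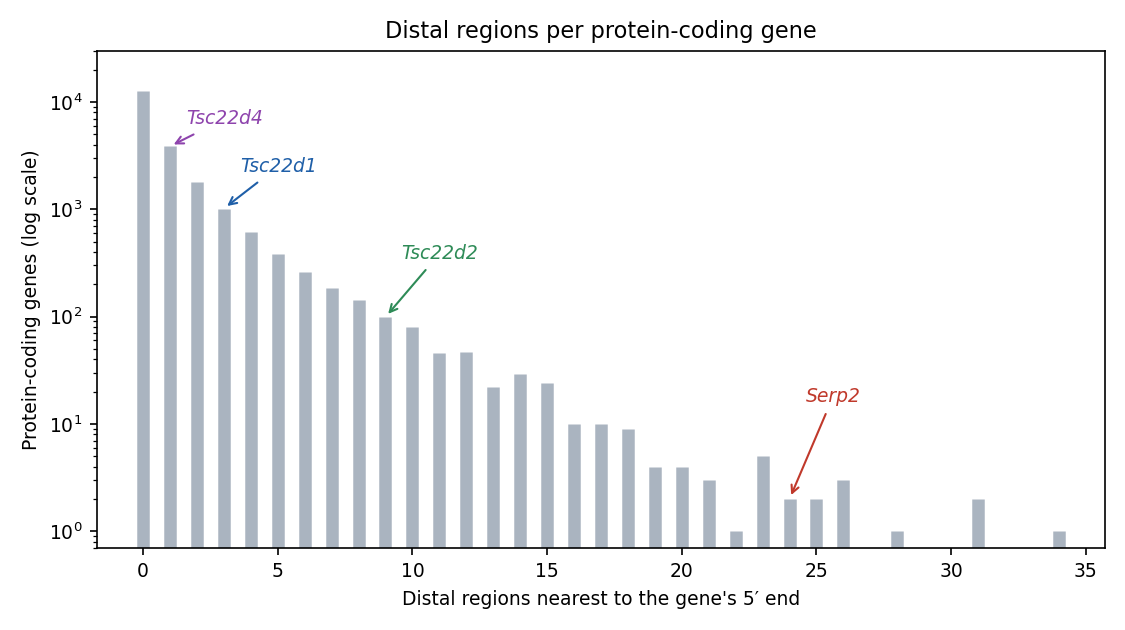
Number of protein-coding genes (y axis, log scale) by the number of distal regions nearest to their 5′ end (x axis). Arrows mark Tsc22d4 with 1, Tsc22d1 with 3, Tsc22d2 with 9 and Serp2 with 24.

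Serp1 and Tsc22d2, the relatives of the pair, are neighbours on chromosome 3 in the same orientation, transcribed towards each other over 111 kb. Their window held 16 regions, of which 12 were distal, against 31 and 30 around Tsc22d1 and Serp2. Serp1 had a region from 58525562 to 58526109 with a fold of 12.8 and an IDR score of 1000, shared with Eif2a, a translation factor gene that starts beside it in the other direction. To Serp1 0 distal regions were nearest, but the stretch nearest to its 5′ end was only 25.4 kb, against 311 kb for Serp2. The 2 counts are therefore not alike. Tsc22d2 had a region from 58414296 to 58414829 at the 5′ end with a fold of 5.25 and an IDR score of 675, and 9 distal regions nearest to it over 339 kb.

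Within 300 kb upstream of the 5′ end, 8 regions lay at Tsc22d2 and 5 at Tsc22d1, whereas 20 lay at Serp2 and 4 at Serp1. Of those at Serp1 2 were distal, and those of the other genes all were. Within 300 kb downstream, 20 regions lay at Tsc22d1, 8 at Serp2, 7 at Tsc22d2 and 9 at Serp1. The 20 downstream of Tsc22d1 include part of the row upstream of Serp2. The strongest of the 9 distal regions nearest to Tsc22d2 lay from 58334115 to 58334481, upstream, with a fold of 10.3 and an IDR score of 1000. A region from 58416367 to 58416908 with a fold of 5.59 lay just inside the gene. The median fold of the 9 was 7.85, compared with 6.69 for the 24 nearest to Serp2 and 6.36 for the 3 nearest to Tsc22d1, and the ranges overlapped. These differences were not tested, since regions of 1 list are not replicates.

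Around Tsc22d4 on chromosome 5, where genes are closely packed, the window held 21 regions, of which 12 lay at protein-coding 5′ ends. That of Tsc22d4 ran from 137745664 to 137746084, with a fold of 5.44, an IDR score of 714 and its midpoint 95 bp from the 5′ end. The only distal region nearest to Tsc22d4 lay 14.2 kb into the gene, from 137759901 to 137760403, with a fold of 9.81 and an IDR score of 1000, and it was thus the stronger of the 2. Other regions in the window were nearest to the many neighbouring genes, and the stretch nearest to the 5′ end of Tsc22d4 was 18.9 kb. Nearby 5′ ends with a region were those of Ppp1r35, Mepce and Zcwpw1.

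**Figure D4:**
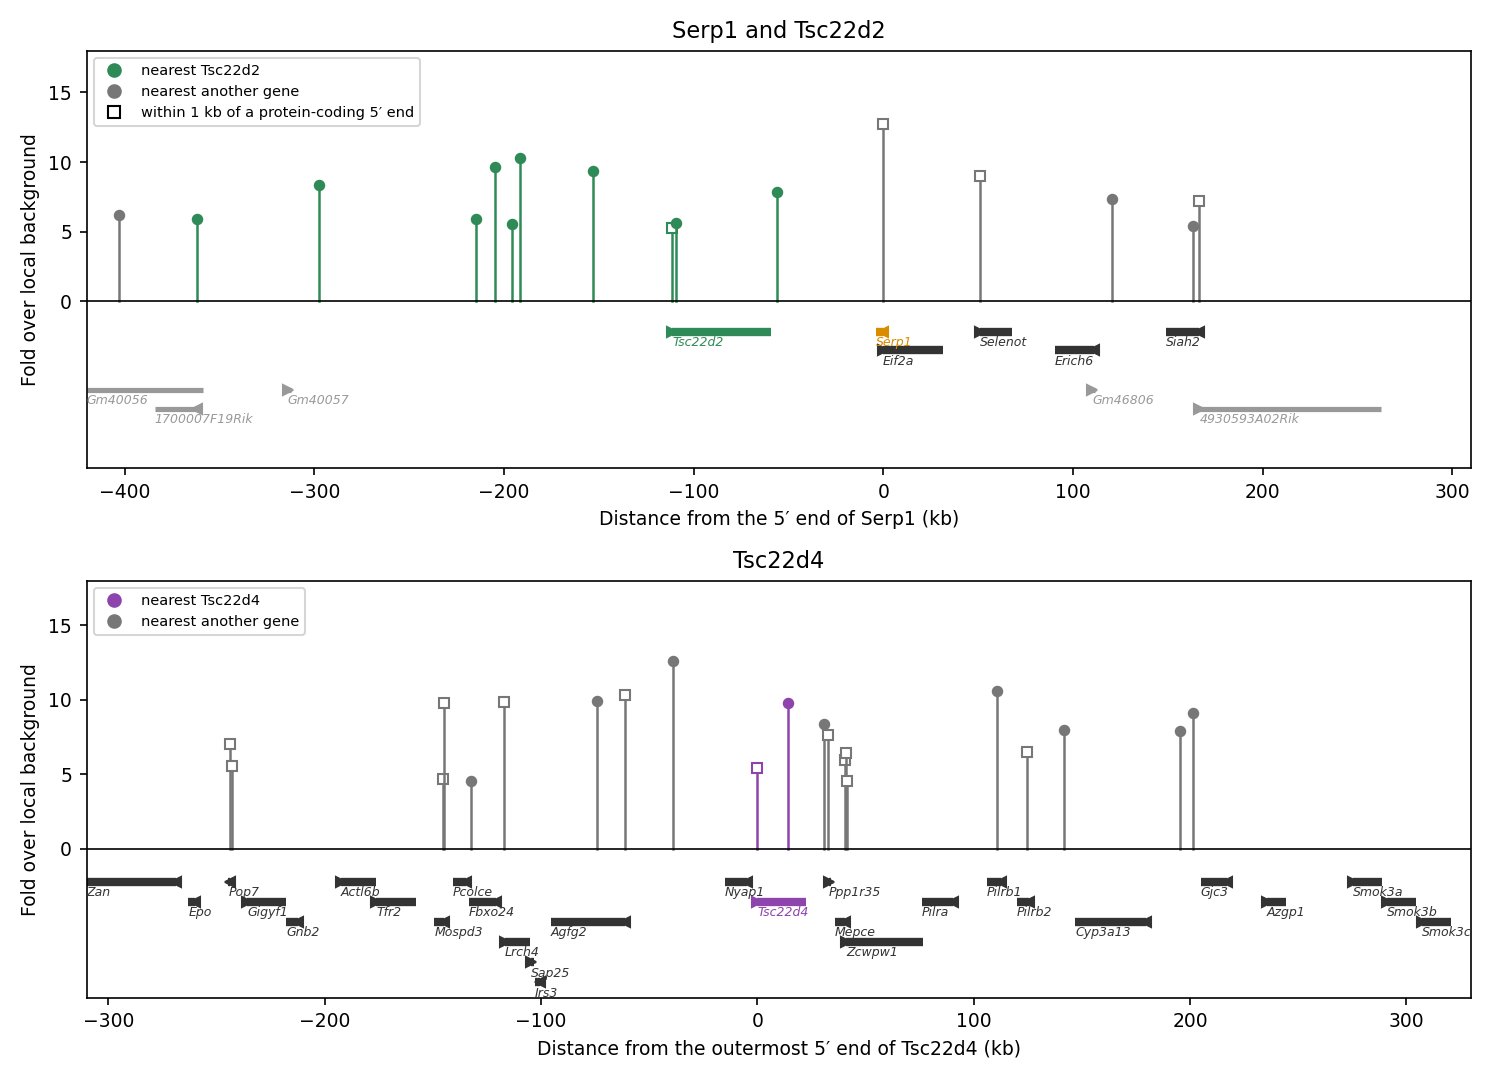
Fold over the local background (y axis) of each open region around Serp1 and Tsc22d2 (above) and around Tsc22d4 (below) against the distance from the 5′ end of Serp1 or of Tsc22d4 (x axis, kb), drawn as in the map of Tsc22d1 and Serp2. Open squares are regions within 1 kb of a protein-coding 5′ end, of which the upper panel has 4 and the lower 12, and long noncoding genes are drawn in the upper panel only.

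Tsc22d3, the fourth gene of the family, on chromosome X, had 0 regions within 1 kb of its outermost 5′ end and 2 distal regions nearest to it. Of these, the region from 140542914 to 140543635, with a fold of 7.79, an IDR score of 911 and 5 summits, had its midpoint 606.5 bp upstream of the innermost of 3 listed starts, 57.9 kb inside the gene. Both Tsc22d1 and Tsc22d3 thus had a region within 1 kb of their innermost listed start. Regions from 140505631 to 140506314, 140511043 to 140511560 and 140520082 to 140520718 were nearest to Prps1 by outermost 5′ ends. With every listed start counted, they were nearest to Tsc22d3, at 36695.5, 31366.5 and 22268 bp. At the outermost 5′ end, 3 of the 4 family genes had a region, with folds of 5.25, 5.44 and 6.17, all below the median for such regions.

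**Figure D5:**
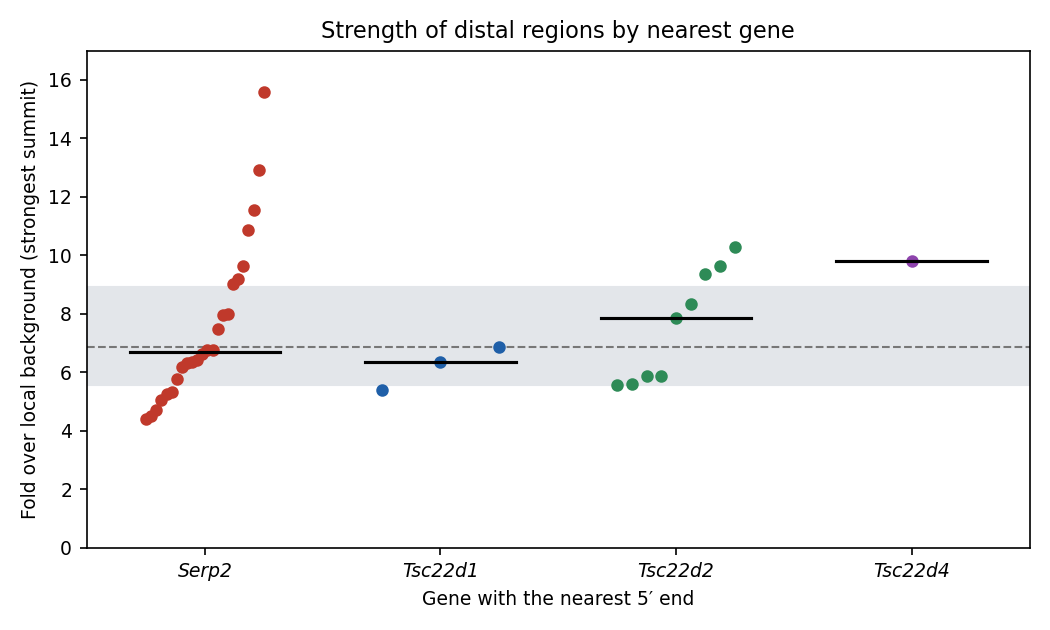
Fold over the local background at the strongest summit (y axis) of each distal region, by the member whose 5′ end is nearest (x axis). Points are regions, black lines are medians, and the dashed line and grey band are the median of 6.87 and the quartiles of 5.57 and 8.92 of all distal regions. Serp2 has most points and the highest, at 15.6, while its median of 6.69 lies close to the dashed line.

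Among 14 genes of the translocon and its associated proteins, 13 had a region at the 5′ end (92.9%, Wilson interval 68.5 to 98.7, beside 38.3% of protein-coding genes), and Serp2 was the exception. Sec61a1, which encodes the channel subunit, had a region of 10.9-fold with its midpoint 156 bp from the 5′ end, Sec61g of 15.8-fold and Ssr3, a subunit of the translocon-associated protein complex, of 15.8-fold. The median number of distal regions over the 14 genes was 0.5, beside 0 over all protein-coding genes, and Serp2 accounted for 24 of 41. The stretch nearest to the 5′ end ran from 19.1 kb for Ssr4 to 311 kb for Serp2. The next longest, 290 kb for Ssr3 and 285 kb for Sec61b, held 6 and 0. Serp2 was chosen by its regions, so its place in this list is a description.

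Of 8 genes for partners of TSC22 proteins and the WNK kinase pathway that they act with, which controls ion transport and cell volume, 3 had a region at the 5′ end (37.5%), a share close to that of all protein-coding genes. They were Nrbp2 with a fold of 10.4, Wnk1 with 12.0 and Oxsr1 with 12.3. Nrbp1, Wnk2, Wnk3, Wnk4 and Stk39 had 0 at the outermost 5′ end, and Stk39, a kinase downstream of WNK kinases, had 9 distal regions nearest to it. Of 9 genes of TGF-beta signalling, 4 had a region at the 5′ end (44.4%, Wilson interval 18.9 to 73.3), near the 38.3% of all protein-coding genes. They were the receptor genes Tgfbr1 and Tgfbr2 and the mediators Smad2 and Smad4. The highest numbers of distal regions in that list were those of the ligand gene Tgfb2, with 18 over 316 kb, and of Tgfbr2, with 16 over 873 kb.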

How the data were processed

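ATAC-seq of 4 organoid samples was deposited as 1 list of regions. The authors ran 75 bp paired-end reads of all organoid samples through the ENCODE pipeline for ATAC-seq to reach a consensus list. Its version and filters are not given in the sources used here. The deposited list was read as this consensus, although the number of peaks stated in the paper equals neither its lines nor its distinct regions. Each line of the deposited list is a summit with its IDR score, its fold, which is the ratio of pileup to local background, and the −log10 of its q-value. A column of p-values was not used. Depth per sample is unknown.

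From 69545 lines, those with the same ends were joined into 32011 distinct regions, each with its strongest summit. Gene ends came from a RefSeq table of GRCm38.p6. Strand came from the RefSeq promoter table for 17492 protein-coding genes and, by gene name and chromosome only, from GENCODE release 39 for 3948. Of 21887 protein-coding genes, 21440 thus had a strand. A region over 1 kb from every protein-coding 5′ end was called distal and assigned to the nearest outermost 5′ end. Wilson intervals (95%) cover counting error only. No test was run, since there are no values by sample and the members were chosen by these regions. The members and gene lists were chosen with earlier results of these data known.

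Named genes were the members, Serp1 and Tsc22d3, protein-coding neighbours, the listed pathway genes and the 3 genes most like Tsc22d1 in number of distal regions and stretch. Further genes and regions were named after their values were seen. Region sequences were not used here, because no GRCm38 genome was at hand, and promoter sequences were those of the RefSeq table, which held 2 of the 4 members. Alternatives are given in the closing section. Functions were tested on simulated data. Python 3.11.15 with numpy, pandas, scipy and matplotlib was used.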

Additional observations from a re-analysis of the deposited data

How the results depend on the processing

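No paired analysis was possible because the 4 samples share 1 list without values by sample, and leaving out a sample was not possible for the same reason. Of 65 values under alternative settings, 44 stayed within 1.5 times the value in the text, or within its interval for shares, and 21 did not. Of the 65, 22 were chosen after seeing the data.

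In the 16006 regions with the lowest q-values, which are fewer by construction, the window of Tsc22d1 and Serp2 held 12 regions and that of Serp1 and Tsc22d2 held 7. By outermost 5′ ends, distal regions nearest to Serp2 numbered 12, to Tsc22d2 4 and to Tsc22d1 0. The share nearest to Serp2 was thus 100% and that nearest to Tsc22d1 0%, and the median fold for Tsc22d1 could not be computed. The 12 nearest to Serp2 included the region from 76504120 to 76504771, 64.5 bp from the innermost listed start of Tsc22d1. A region at the outermost 5′ end was left at 0 of the 4 members and at 15 of the 35 list genes, beside 25.9% of all protein-coding genes. In the full list it was 23 of the 35, of which 13 were translocon genes, beside 38.3%. Within 1 kb of any listed start, a setting chosen after seeing the data, it was 26 of the 35. The share of all protein-coding genes under that setting is not given here. Counting every line gave 70 and 39 for the 2 windows, in which a region with several summits counts several times.

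With 5′ ends of genes of any type, 1 distal region was nearest to Tsc22d1, 2 to Serp2 and 2 to Tsc22d2, with shares of 3.33% for Tsc22d1 and 6.67% for Serp2. With every listed start, 6 were nearest to Tsc22d1. With protein-coding 5′ ends that have a region within 1 kb, 33 were nearest to Tsc22d1 over the whole list, with a share of 90% in the window, and 0 to Serp2, with a share of 0%. Both of these settings were chosen after seeing the data. Distances of 2 and 5 kb for distal regions, nearest gene bodies and windows of 150 and 500 kb changed no value by over 1.5 times. Without the depth, the 5′ end of Serp2 can only be called unlisted and not closed.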
